A study of Mus musculus with 7 samples.

Results

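Potassium channel genes of the mouse were examined in ChIP-seq peak lists of the cerebellar granule lineage. The set held every autosomal protein-coding gene of GENCODE release M21 whose symbol starts with Kcn, which gave 92 of 20807 genes. A peak was counted for a gene when its centre lay between 5 kb upstream of the gene and 1 kb downstream of it. Of the 92 genes, 33 belonged to the Kcna to Kcnh families, 15 to the Kcnj family, 14 to the Kcnk family and 5 to the Kcnq family. The others were 5 silent or modifying subunits of the Kcns and Kcnv families, 8 calcium- or sodium-activated channels, 11 auxiliary subunits (Kcnab, Kcnip and Kcnmb) and Kcnrg. The X-linked Kcnd1 and Kcne1l and the antisense transcripts with a Kcn symbol were not counted.

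The study asked how Chd7, a chromatin remodeller that is mutated in CHARGE syndrome, acts in granule cell development. Pups of the C57BL/6 strain (C57BL/6N in the study's methods) were used at postnatal day 7, either WT or lacking Chd7 in the granule lineage, with Atoh1-Cre and floxed alleles of the gene (genotype Atoh1-Cre::Chd7 f/f). Granule neuron progenitors (GNPs) were freshly isolated, whereas cerebellar granule neurons (CGNs) were grown from GNPs for 48 h in the absence of SHH, the mitogen of these progenitors. Peak lists were analysed for H3K27ac in GNPs, for Chd7 in WT GNPs and in Chd7-deficient GNPs, and for Top2b in WT CGNs and in Chd7-deficient CGNs, with 1 sample per condition. Cre was driven by Atoh1, a gene of the granule lineage, and the study describes Chd7 protein left in the posterior lobe of such mice. WT controls elsewhere in the study carried the floxed alleles without Cre, and the labels of these libraries do not state the genotype further. H3K27ac marks active promoters and enhancers, and Top2b is a DNA topoisomerase that relieves torsion at active and at long genes.

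Potassium channels let potassium ions leave or enter a cell and so set its resting potential and the shape of its action potentials. The Kcna to Kcnh genes mostly encode voltage-gated pore subunits (the Kcne genes counted with them encode small auxiliary subunits), the Kcnj genes encode inward rectifiers, and the Kcnk genes encode leak channels with a tandem of pore domains. Granule neurons acquire A-type, delayed-rectifier, leak and G protein-gated potassium currents as they mature, and the channel genes are therefore often counted among the genes of neuronal differentiation.

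The lists held 31400 H3K27ac peaks, 1946 Chd7 peaks of WT GNPs, 96 Chd7 peaks of Chd7-deficient GNPs, 17030 Top2b peaks of WT CGNs and 21505 Top2b peaks of Chd7-deficient CGNs. The numbers of reads are not in the lists, so the depth behind them is unknown, and a place without a listed peak may still hold signal below the threshold of the peak caller. Each share below is given with its 95% Wilson interval, which covers the sampling of genes or peaks and not the variation between animals. With 1 sample per condition no difference between libraries could be set against replicate error, and no test was made. H3K27ac peaks lay at 10 of 10 marker genes of GNPs (fold enrichment of the highest peak from 3.46 to 31.6), at 0 of 4 Purkinje cell markers and at 0 of 3 autosomal oligodendrocyte markers. They also lay at 4 of 4 markers of inhibitory interneurons (2.90 to 4.71), at 3 of 4 endothelial markers (2.60 to 18.3), at 2 of 4 markers of Bergmann glia and astrocytes (3.53 and 6.54) and at 1 of 4 microglial markers (5.76). The part of such cells in the peaks at Kcn genes was not tested.

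Chd7 peaks of WT GNPs lay at 12 of the 92 Kcn genes (13.0%, 7.62 to 21.4), against 6.34% of all autosomal protein-coding genes, the Kcn genes included. Chd7 peaks of Chd7-deficient GNPs lay at 0 of the 92 (0 to 4.01), against 0.0673% of all genes. The 12 genes held 15 WT peaks, none of which fell into the window of another protein-coding gene or overlapped a Chd7 peak of Chd7-deficient GNPs. They were Kcnab1, Kcnj3, Kcnq5, Kcnip4, Kcnk10, Kcnma1, Kcnn2, Kcnb2, Kcnj9, Kcnk13, Kcnd3 and Kcnj6. Their median length was 259 kb, from 8.82 kb for Kcnj9 to 1135 kb for Kcnip4, whereas the median over all 1319 genes with a WT Chd7 peak was 45.0 kb.

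The reference sequence under 7 of these summits is printed, as examples of intragenic Chd7 sites. The intragenic sites at Kcnd3, Kcnma1, Kcnj9 and Kcnn2 and the other site at Kcnk10 are not printed. Each run is the 200 bases of mm10 (GRCm38, plus strand) around the summit, read from the RefSeq assembly. Capitals mark matches on either strand to the motifs searched, CATCTG and CAGCTG (E-boxes, bound by basic helix-loop-helix factors such as Atoh1 and Neurod1), CAGCAGG (Zic-like), TTGGCA (part of the NFI motif) and ACAATG (Sox-like).
Kcnab1, chr3:65322255-65322454: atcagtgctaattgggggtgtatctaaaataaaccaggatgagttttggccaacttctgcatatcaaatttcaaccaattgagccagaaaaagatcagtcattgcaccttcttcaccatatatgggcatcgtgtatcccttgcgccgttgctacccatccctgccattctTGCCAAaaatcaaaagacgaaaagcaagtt
Kcnj3, chr2:55480210-55480409: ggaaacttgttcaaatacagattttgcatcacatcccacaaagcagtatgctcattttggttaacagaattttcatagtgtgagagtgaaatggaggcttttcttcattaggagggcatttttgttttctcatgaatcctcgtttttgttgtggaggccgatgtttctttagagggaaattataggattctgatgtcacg
Kcnq5, chr1:21411579-21411778: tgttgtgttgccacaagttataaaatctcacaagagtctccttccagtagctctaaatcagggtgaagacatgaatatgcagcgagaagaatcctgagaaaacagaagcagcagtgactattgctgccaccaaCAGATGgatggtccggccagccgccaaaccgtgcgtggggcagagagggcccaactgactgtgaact
Kcnip4, chr5:49150328-49150527: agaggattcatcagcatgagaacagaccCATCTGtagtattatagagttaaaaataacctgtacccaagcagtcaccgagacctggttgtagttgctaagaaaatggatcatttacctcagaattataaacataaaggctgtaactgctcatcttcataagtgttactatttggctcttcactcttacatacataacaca
Kcnj6, chr16:94932032-94932231: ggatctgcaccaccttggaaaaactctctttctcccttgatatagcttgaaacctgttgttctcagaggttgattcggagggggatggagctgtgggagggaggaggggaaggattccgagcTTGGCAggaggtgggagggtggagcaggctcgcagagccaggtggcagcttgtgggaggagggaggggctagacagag
Kcnk10, chr12:98482061-98482260: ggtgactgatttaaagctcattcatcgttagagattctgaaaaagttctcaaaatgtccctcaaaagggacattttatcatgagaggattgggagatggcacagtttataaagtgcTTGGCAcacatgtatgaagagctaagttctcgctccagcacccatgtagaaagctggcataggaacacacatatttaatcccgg
Kcnk13, chr12:100003196-100003395: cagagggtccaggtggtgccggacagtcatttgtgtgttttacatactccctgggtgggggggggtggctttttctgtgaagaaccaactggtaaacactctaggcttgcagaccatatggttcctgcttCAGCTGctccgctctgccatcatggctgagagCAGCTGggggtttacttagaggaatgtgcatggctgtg
Kcnq5 and Kcnip4 each held a CATCTG, Kcnab1, Kcnj6 and Kcnk10 each a TTGGCA, Kcnk13 had 2 matches to CAGCTG, and the Kcnj3 window held no match. Over all 15 Kcn peaks, CATCTG or CAGCTG occurred in 6 windows (40%, 19.8 to 64.3), against 38.9% of 1902 WT Chd7 peaks and 25.4% of 31395 H3K27ac peaks on assembled chromosomes, in windows of the same length. TTGGCA occurred in 3 of the 15 (20%, 7.05 to 45.2), against 18.8% of WT Chd7 peaks and 9.63% of H3K27ac peaks. CAGCAGG and ACAATG occurred in 0 of the 15 (0 to 20.4), against 9.94% and 6.62% of WT Chd7 peaks. These shares at Kcn genes were therefore near those of the whole Chd7 list or had intervals that included them. The windows at Kcn genes ranged from 37.0% to 77.0% GC with a median of 54.0%, beside 56.0% for the whole Chd7 list. A match is a string of letters and does not show that a factor was bound.

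The strongest Chd7 peak at a Kcn gene lay at Kcnab1, which encodes a cytoplasmic beta subunit that speeds inactivation of Kcna-type channels. It was at chr3:65322104-65322822, in an intron 24.9 kb from the nearest Kcnab1 start, with a fold enrichment of 7.23, a pileup of 29 fragments and a −log10 q-value of 13.6. Of the 1946 WT Chd7 peaks, 98.6% had a lower fold enrichment. The H3K27ac peak over it was 2987 bp wide with a fold enrichment of 24.3, the highest of the 12 at this gene.

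Among the inward rectifiers, 3 genes for G protein-gated channels had Chd7 peaks, and these channels carry the slow inhibitory current that follows activation of Gi-coupled receptors. Kcnj3 had 2 peaks, at its start (chr2:55435699-55436074, fold enrichment 4.09, summit 0.191 kb upstream) and in an intron (chr2:55480120-55480483, fold enrichment 5.55), and the intronic peak lay under the highest H3K27ac peak of any Kcn gene. Kcnj6 had an intronic peak at chr16:94931748-94932171 with a fold enrichment of 2.91, a low value that only 4.57% of WT Chd7 peaks fell under. Kcnj9 had a peak in a coding exon at chr1:172325824-172326507 (fold enrichment 3.60) that no H3K27ac peak overlapped. Kcnj5, the remaining gene for this channel type, had no peak in any of the 5 lists. This group of 4 was formed after its values were seen.

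Leak channel genes gave 3 Chd7 peaks. Kcnk10, for a channel that opens with stretch and lipids, held intronic peaks at chr12:98482087-98482427 and chr12:98545722-98546092 with fold enrichments of 4.29 and 3.70. Kcnk13, for a halothane-inhibited channel, held an intronic peak at chr12:100003177-100003520 with a fold enrichment of 3.70, and it was the only one of the 12 genes without any H3K27ac peak in its window.

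Voltage-gated genes with Chd7 peaks were Kcnb2, Kcnd3 and, outside the Kcna to Kcnh group, Kcnq5. Kcnb2, for a delayed rectifier, had a summit 0.363 kb upstream of its start (chr1:15286646-15287003, fold enrichment 4.14). Kcnd3, for an A-type channel, had an intronic peak at chr3:105616958-105617494 (3.43). Kcnq5, for a subunit of the muscarine-sensitive M current, had an intronic peak at chr1:21411492-21411822 (4.96), which lay 550 kb from the annotated start, and the nearest transcript start of any gene there belonged to Khdc1b. Kcnip4, whose product is a calcium sensor that binds Kcnd channels, had an intronic peak at chr5:49150315-49150631 (4.82). Kcnma1, for the large-conductance calcium-activated channel, had an intronic peak at chr14:23723960-23724423 (4.28). At Kcnn2, for a small-conductance calcium-activated channel, 2 peaks (4.19 and 3.90) lay beside an internal start and beneath a shared H3K27ac peak. Apart from the peak of Kcnab1 and the intronic peak of Kcnj3, the 13 peaks at Kcn genes had fold enrichments from 2.91 to 4.96, around the median of 4.07 in the whole list.

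Within 1 kb of a transcript start, Chd7 peaks were found at 3 Kcn genes, Kcnj3, Kcnb2 and Kcnn2 (3.26%, 1.12 to 9.15), against 4.33% of all genes. Of the 15 peaks, 4 were that close to a start (26.7%, 10.9 to 52.0), against 829 of 1946 in the whole list (42.6%). The whole list includes peaks outside genes. Of the 1301 WT Chd7 peaks in windows of protein-coding genes, 63.7% (61.1 to 66.3) were that close. Genes with a WT Chd7 peak had a median length of 259 kb among Kcn genes and 45.0 kb among all genes. The part of length in this lower share was not tested. Introns held 11 of the 15, coding exons 2 and upstream sequence 2. Just outside the window rule were Kcnj14 and Kcnn1, with the nearest Chd7 peak 2.20 kb and 2.34 kb from the gene. Widening the window to 50 kb on both sides gave 21 Kcn genes (22.8%), against 15.0% of all genes.

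**Figure D1:**
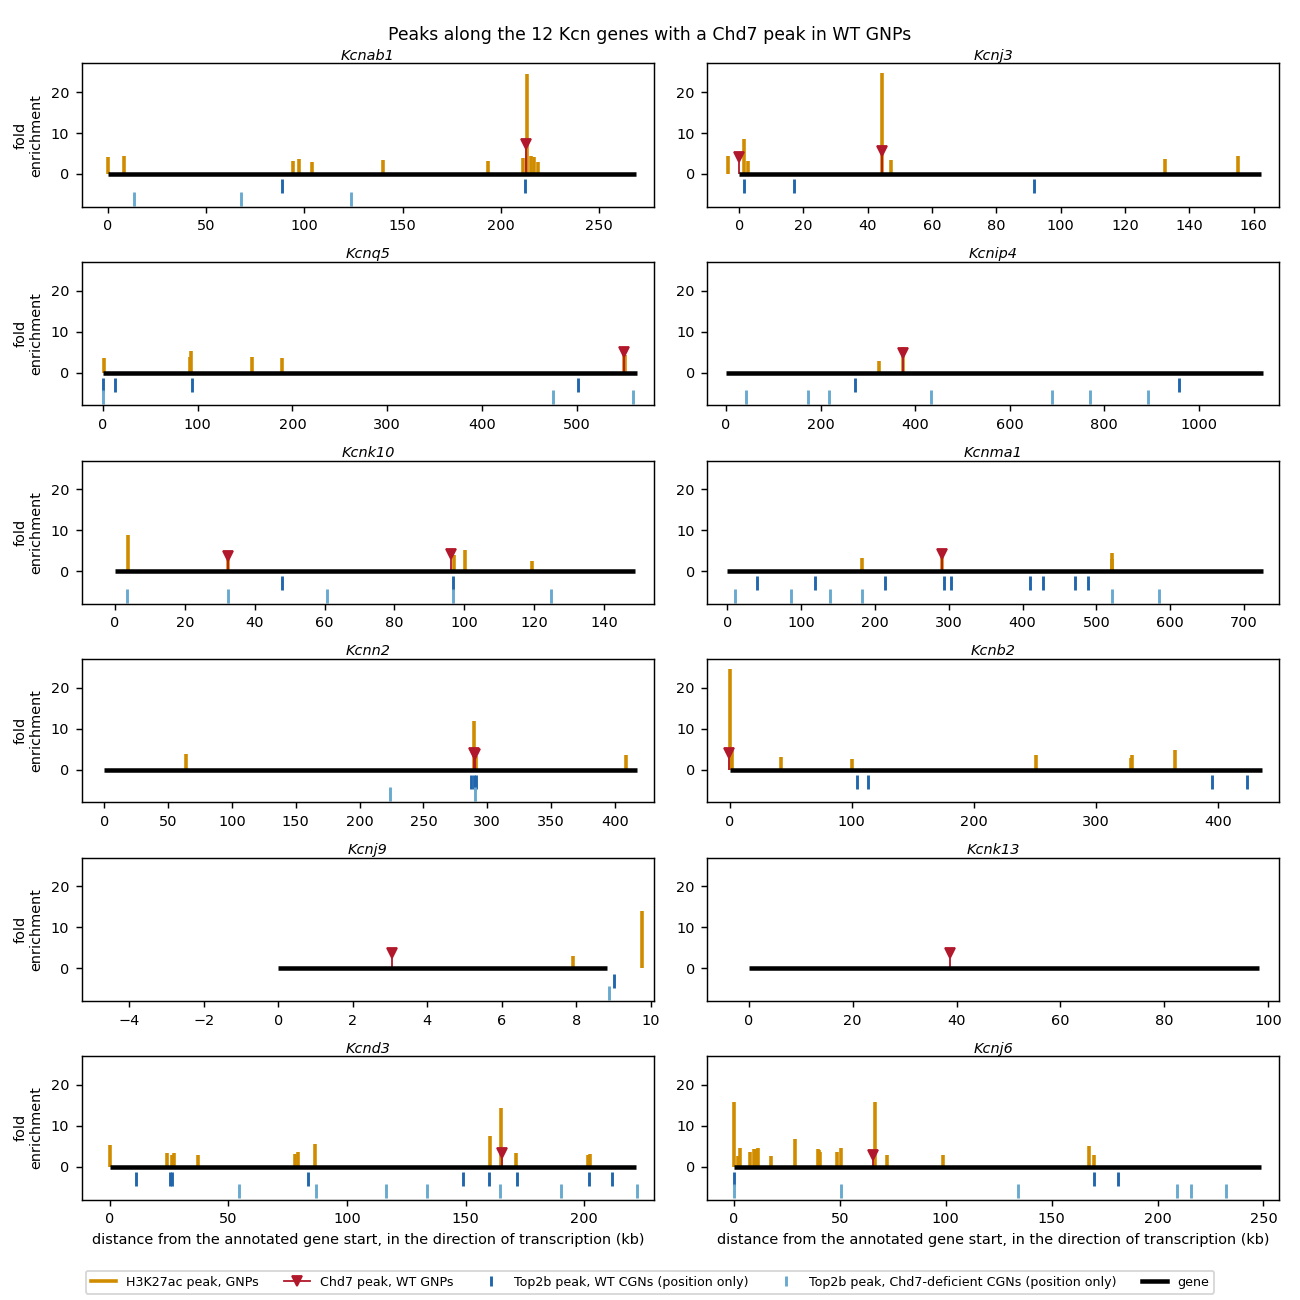
Peaks along the 12 Kcn genes with a Chd7 peak in WT GNPs, by distance in kb from the annotated start in the direction of transcription, with the fold enrichment over background on the y axis for H3K27ac (orange bars) and Chd7 (red triangles) and ticks below for the positions of Top2b peaks. At Kcnab1 and Kcnj3 the strongest Chd7 peak lies under the highest H3K27ac peak (24.3 and 24.7), 213 kb and 44.3 kb into the gene.

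H3K27ac peaks overlapped 13 of the 15 Chd7 peaks at Kcn genes (86.7%, 62.1 to 96.3), beside 77.9% of the whole Chd7 list (75.9 to 79.6). The exceptions were the peaks of Kcnj9 and Kcnk13. Conversely, 12 of the 151 H3K27ac peaks at Kcn genes overlapped Chd7, and these had a median fold enrichment of 10.2 (3.64 to 24.7) and a median width of 2092 bp. The 139 others had a median fold enrichment of 3.73 (2.39 to 17.3) and a median width of 579 bp. The ranges overlapped. In the whole library the medians were 10.6 for 1565 peaks with Chd7 and 4.25 for 29835 without, so the values at Kcn genes resembled those of the library.

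**Figure D2:**
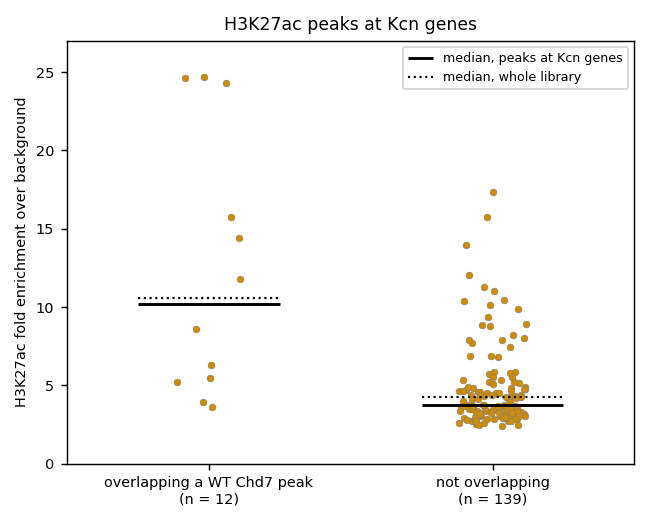
Fold enrichment over background of each H3K27ac peak at a Kcn gene, for the 12 that overlap a WT Chd7 peak and the 139 that do not, with the median at Kcn genes (solid line) and in the whole library (dotted line). The medians are 10.2 and 3.73, and several peaks without Chd7 reach the values of those with it.

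H3K27ac peaks lay at 39 of the 92 Kcn genes (42.4%, 32.8 to 52.6), against 54.1% of all genes. At a transcript start, within 1 kb, they lay at 26 (28.3%, 20.1 to 38.2), against 46.6% of all genes. Thus 13 of the 39 marked Kcn genes (33.3%, 20.6 to 49.0) had H3K27ac only away from their starts, beside 13.8% of marked genes overall (13.2 to 14.5). They were Kcnab3, Kcnc2, Kcnh1, Kcnip4, Kcnj10, Kcnj12, Kcnj9, Kcnk12, Kcnk9, Kcnma1, Kcnn1, Kcnn3 and Kcnq1. Marked Kcn genes had a median length of 87.1 kb, beside 27.1 kb for all marked genes. The part of length in the larger share was not tested. Of the 151 peaks, 115 were intronic and 34 lay within 1 kb of a start (22.5%, 16.6 to 29.8). The share was 46.8% for H3K27ac peaks in windows of all protein-coding genes and 34.4% for the library, which includes peaks outside genes.

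The voltage-gated, inward-rectifier and leak groups had similar shares of genes with H3K27ac. These were 12 of 33 Kcna to Kcnh genes (36.4%, 22.2 to 53.4), 6 of 15 Kcnj genes (40%, 19.8 to 64.3) and 6 of 14 Kcnk genes (42.9%, 21.4 to 67.4). Without the 4 Kcne genes, none of which had an H3K27ac peak, the first share was 41.4%. Chd7 peaks lay at 2 of 33 (6.06%, 1.68 to 19.6), 3 of 15 (20%, 7.05 to 45.2) and 2 of 14 genes (14.3%, 4.01 to 39.9) in the same order. All these intervals overlapped and were wide with this number of genes, and differences between the groups were not tested. Relative to the length of their windows, Kcnj genes held 4.06 H3K27ac peaks per 100 kb, Kcnk genes 2.14 and Kcna to Kcnh genes 1.35, and all protein-coding genes held 2.33. Kcnj6 alone supplied 19 of the 33 Kcnj peaks. The highest H3K27ac peak of a marked gene had a median fold enrichment of 13.0 in the Kcnj genes (3.02 to 24.7), 8.04 in the Kcna to Kcnh genes (3.30 to 24.6), 6.75 in the Kcnk genes (2.73 to 11.3) and 8.36 in all marked genes.

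**Figure D3:**
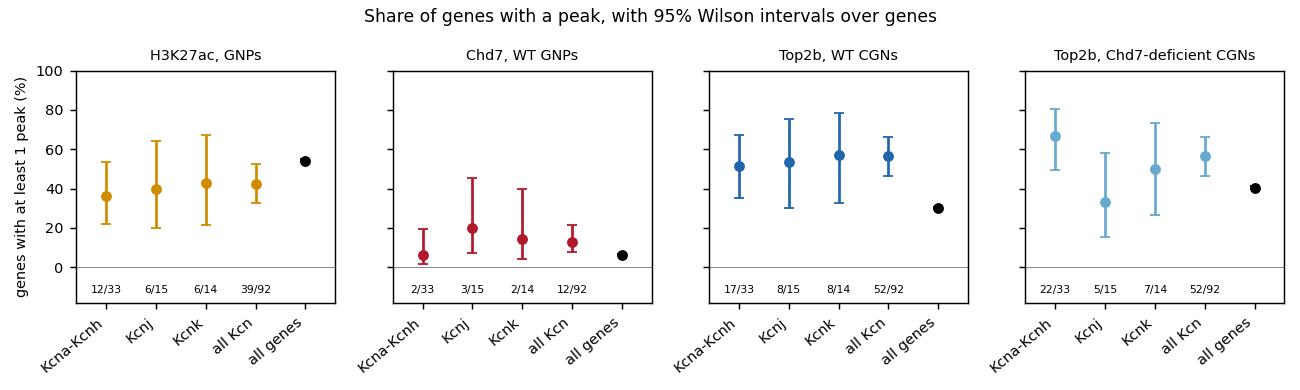
Share of genes with at least 1 peak in percent (y axis) for H3K27ac, Chd7 in WT GNPs and Top2b in CGNs of each genotype, with 95% Wilson intervals over genes, for the Kcna to Kcnh, Kcnj and Kcnk groups, all Kcn genes and all autosomal protein-coding genes (black). The intervals of the 3 groups overlap in every panel.

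The highest H3K27ac peaks were found at Kcnj3, Kcnb2, Kcnab1, Kcnab2 and Kcnj6. At Kcnj3 the peak was intronic at chr2:55478195-55482536, 4342 bp wide, with a fold enrichment of 24.7. At Kcnb2 it covered the start at chr1:15286190-15288193 with a fold enrichment of 24.6, and at Kcnab1 it was the intronic peak of 24.3 described with Chd7. The peak at Kcnab2, for another beta subunit, was 17.3-fold enriched at chr4:152477558-152478357 and also lay in the window of Nphp4, whose start was nearer. Kcnj6 had peaks of 15.7 both at its start and over the intronic Chd7 peak, the latter higher in the next decimals. Hence 4 of the 5, all but Kcnab2, held a Chd7 peak beneath their highest H3K27ac peak. H3K27ac peaks with Chd7 were higher in the whole library too (medians of 10.6 and 4.25). The share with Chd7 among equally high peaks of other genes was not counted. Leaving out peaks that also fell into the window of another gene took Kcnab2 and Kcnab3 off the list of marked genes and left 37.

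The most H3K27ac peaks were listed for Kcnj6 (19), Kcnd3 (13), Kcnab1 (12), Kcnb2 (8), and Kcnj3 and Kcnq5 (7 each). Each of these 6 genes had a WT Chd7 peak, and each was longer than 100 kb, where 10 of 23 Kcn genes had one. The share with Chd7 among other genes with as many H3K27ac peaks was not counted. At Kcnd3 the fold enrichment ran from 2.80 to 14.4 and the highest peak, at chr3:105616518-105618332, lay in an intron 51.6 kb from the nearest start, over the Chd7 peak. At Kcnq5 all 7 peaks were low (3.46 to 5.24), and the peak over the Chd7 site was the highest of them. At Kcnab1, 11 of the 12 peaks were between 2.99 and 4.49.

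**Figure D4:**
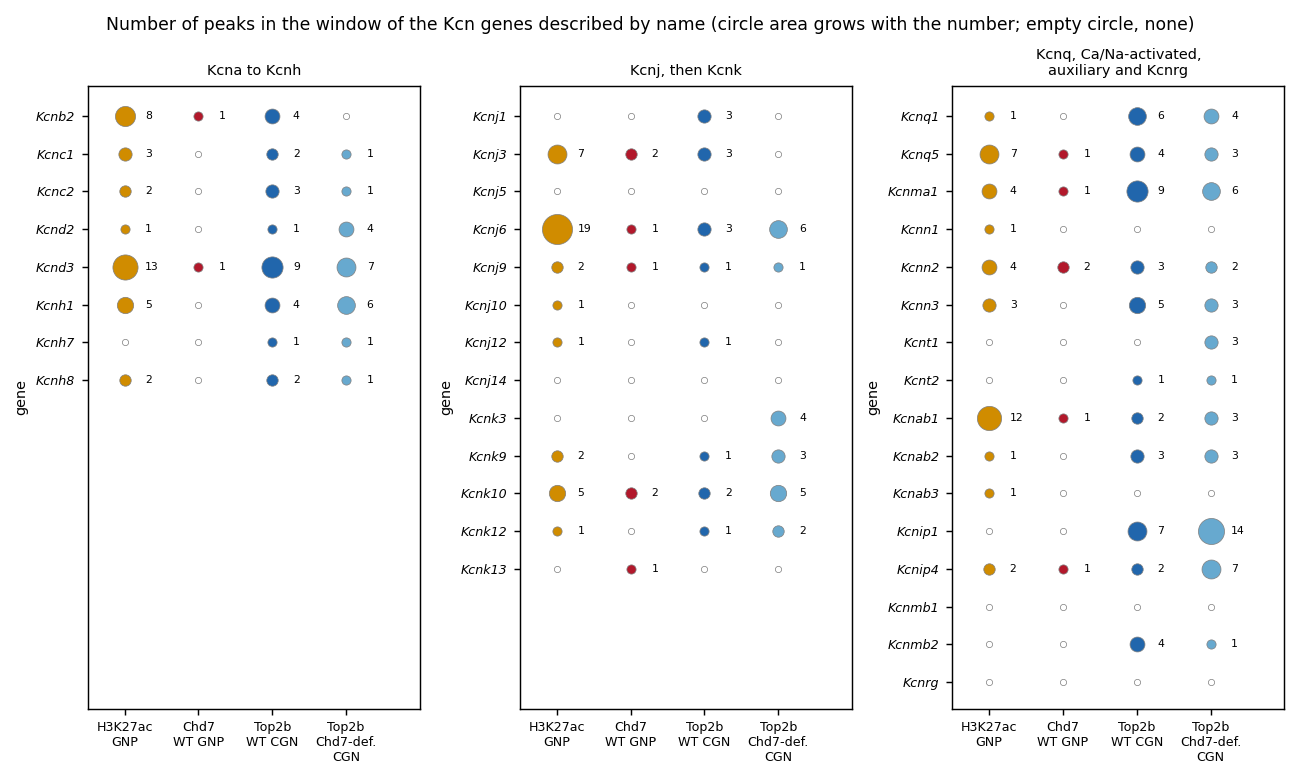
Number of peaks in the window of the Kcn genes described by name in the text (rows, by family) for H3K27ac in GNPs, Chd7 in WT GNPs and Top2b in WT and Chd7-deficient CGNs (columns), with the circle area growing with the number and an empty circle for none. Kcnj6 has the most H3K27ac peaks (19), Kcnip1 the most Top2b peaks in Chd7-deficient CGNs (14) with no H3K27ac peak.

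Large acetylated domains were approximated by joining H3K27ac peaks up to 12.5 kb apart and ranking the 17539 regions by summed width times pileup, and the 612 regions past the bend of that ranking were called super-enhancer-like. They touched 2 Kcn genes (2.17%, 0.598 to 7.58), against 4.38% of all genes. The region at Kcnj6 (chr16:94946784-94998491, rank 357) joined 14 peaks over 51.7 kb at the 5′ part of the gene and left out the intronic Chd7 site. The region at Kcnj9 (chr1:172307165-172321611, rank 431) joined 7 peaks and reached only the 3′ end of Kcnj9 from Igsf8, which it also covered. Kcnj3 and Kcnab1 had regions of rank 653 and 742, outside the called set.

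Kcn genes had a median length of 32.2 kb beside 17.6 kb for all genes, and 23 of 92 (25%) exceeded 100 kb beside 11.4% of all genes. A longer gene has a wider window, so the shares were also set beside those of all genes in the same length class. The class over 100 kb has no upper limit, and the lengths of Kcn genes and of all genes within it were not compared. Over 100 kb, 10 of 23 Kcn genes had a Chd7 peak (43.5%, 25.6 to 63.2), beside 16.7% of all such genes (15.3 to 18.3). Relative to the summed length of the windows, however, Chd7 peaks were about as dense at Kcn genes as at all genes, with 0.137 and 0.131 peaks per 100 kb. The other Chd7-bound genes were Kcnk13, from 30 to 100 kb long (1 of 24), and Kcnj9, under 10 kb (1 of 22). H3K27ac lay at 19 of the 23 longest Kcn genes (82.6%, 62.9 to 93.0), beside 78.3%. From 10 to 30 kb it lay at 4 of 23 (17.4%, 6.98 to 37.1), beside 57.0% of all genes of that length (55.8 to 58.2), and from 30 to 100 kb at 11 of 24 (45.8%, 27.9 to 64.9), beside 67.8%. Below 10 kb the values were 5 of 22 (22.7%, 10.1 to 43.4) and 34.5%. H3K27ac was thus listed for a smaller share of Kcn genes than of all genes in each class under 100 kb, and for a close share in the longest class, where the share with Chd7 was larger. The 4 genes over 100 kb with no H3K27ac peak were Kcnh7, Kcnip1, Kcnmb2 and Kcnt2.

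**Figure D5:**
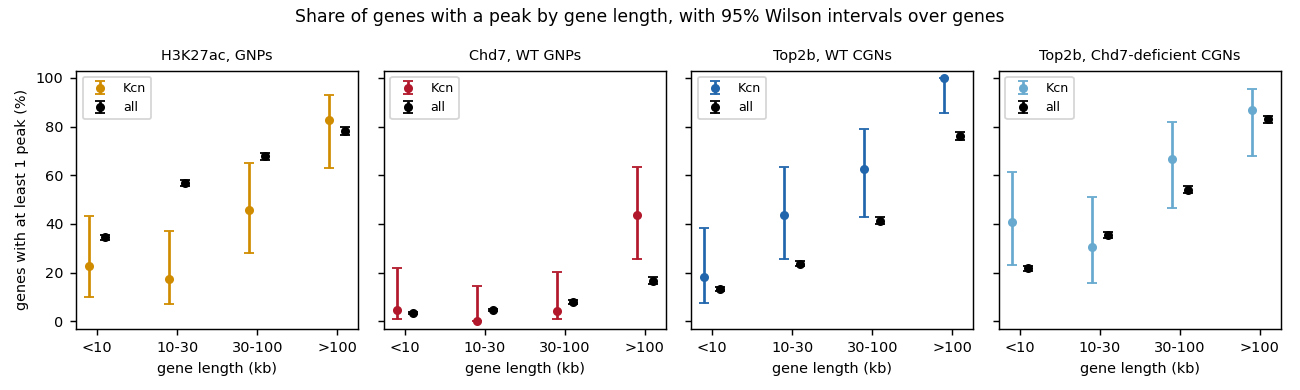
Share of genes with at least 1 peak in percent (y axis) by gene length in kb (x axis), for Kcn genes (coloured) and all autosomal protein-coding genes (black), with 95% Wilson intervals over genes. Above 100 kb, Chd7 lies at 43.5% of Kcn genes beside 16.7% of all genes, and between 10 and 30 kb H3K27ac lies at 17.4% beside 57.0%.

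Around the annotated start, from 250 bases before it to 50 after, Kcn genes had a median GC content of 59.5% beside 55.3% for all genes. The ratio of observed to expected CpG there was 0.489 beside 0.540. For the 26 Kcn genes with H3K27ac at a start the CpG ratio was 0.658 (quartiles 0.450 and 0.815), beside 0.779 for all genes with H3K27ac at a start. For the 66 without it, the ratio was 0.436 (0.210 and 0.638), beside 0.263. The 2 groups of Kcn genes thus overlapped in CpG content. H3K27ac was counted at any transcript start, whereas CpG was measured at the annotated gene start alone, so the 2 were not always the same start. At Kcnn2 and Kcnk2, H3K27ac peaks at a start lay 290 kb and 58.7 kb into the gene.

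Top2b, which was measured in CGNs and was not used in choosing the genes, had peaks at 52 of the 92 Kcn genes in WT (56.5%, 46.3 to 66.2), against 30.2% of all genes. In Chd7-deficient CGNs there were also 52 (56.5%), against 40.5% of all genes. Peaks at 37 genes were found in both genotypes, at 15 in WT only and at 15 in Chd7-deficient cells only. Of the 67 Kcn genes with Top2b in either genotype, these were 55.2% (43.4 to 66.5), 22.4% (14.1 to 33.7) and 22.4%, beside 41.0%, 19.2% and 39.8% of the 10437 such genes among all genes. Kcn genes held 125 peaks in WT and 129 in Chd7-deficient CGNs, and the windows of all genes, where a peak in more than 1 window was counted in each, held 11347 and 15232. Relative to the summed length of the windows, WT CGNs had 1.14 peaks per 100 kb at Kcn genes and 0.987 at all genes. In Chd7-deficient CGNs the density was lower at Kcn genes, with 1.18 beside 1.32. The lists give positions of fixed width without a score, so the strength of binding could not be compared.

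By length, Top2b in WT CGNs lay at 23 of 23 Kcn genes over 100 kb (85.7 to 100), beside 76.1% of all such genes. From 30 to 100 kb it lay at 15 of 24 (62.5%, 42.7 to 78.8) beside 41.3%, and from 10 to 30 kb at 10 of 23 (43.5%, 25.6 to 63.2) beside 23.7%. Below 10 kb it lay at 4 of 22 (18.2%, 7.31 to 38.5) beside 13.2%. In Chd7-deficient CGNs the corresponding shares of Kcn genes over 100 kb and from 30 to 100 kb were 87.0% (67.9 to 95.5) beside 83.1%, and 66.7% (46.7 to 82.0) beside 54.0%. From 10 to 30 kb the share was lower than that of all genes, at 30.4% (15.6 to 50.9) beside 35.6%, and below 10 kb it was 40.9% (23.3 to 61.3) beside 21.7%. Of the 53 Kcn genes without H3K27ac in GNPs, 21 had a WT Top2b peak (39.6%, 27.6 to 53.1), beside 17.7% of all genes without H3K27ac. GNPs and CGNs are different stages, so these lists do not describe the same cells.

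Among the groups, WT Top2b peaks lay at 17 of 33 Kcna to Kcnh genes (51.5%, 35.2 to 67.5), 8 of 15 Kcnj genes (53.3%, 30.1 to 75.2) and 8 of 14 Kcnk genes (57.1%, 32.6 to 78.6). In Chd7-deficient CGNs they lay at 22 of 33 (66.7%, 49.6 to 80.2), 5 of 15 (33.3%, 15.2 to 58.3) and 7 of 14 (50%, 26.8 to 73.2). The intervals overlapped between groups and between genotypes. Kcne genes had peaks at 0 of 4 in WT and 3 of 4 in Chd7-deficient cells, and without them the shares of the first group were 58.6% and 65.5%.

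The most Top2b peaks in a gene were listed for Kcnip1, whose product is a calcium sensor that binds Kcnd channels, with 7 in WT and 14 in Chd7-deficient CGNs. Of these, 3 overlapped between the genotypes, and Kcnip1 had neither H3K27ac nor Chd7 in GNPs. Kcnma1 had 9 and 6 peaks, and Kcnd3 had 9 and 7. Neither of these genes had a Top2b peak at the same place in both genotypes. Kcnip4 had 2 and 7 peaks, Kcnq1, for a channel of heart and epithelia, had 6 and 4, Kcnh1, for a slowly activating channel, had 4 and 6, and Kcnj6 had 3 and 6. At least 3 WT peaks and none in Chd7-deficient CGNs were found at Kcnb2 (4), Kcnj3 (3) and Kcnj1 (3), an inward rectifier known from the kidney. The reverse was seen at Kcnk3 (4) and Kcnt1 (3), for an acid-sensitive leak channel and a sodium-activated channel. These last 5 genes were picked after their values were seen.

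Across all Kcn genes, 20 of the 125 WT Top2b peaks overlapped a peak of Chd7-deficient CGNs (16.0%, 10.6 to 23.4), beside 16.8% of the whole WT list. The 20 lay at 17 genes, with 3 at Kcnip1 and 2 at Kcnh1. Of the 37 Kcn genes with Top2b in both genotypes, these 17 thus held a peak at a common place. H3K27ac of GNPs overlapped 22 of the 125 WT peaks (17.6%), beside 17.4% of the list.

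WT Top2b peaks lay at 11 of the 12 Chd7-bound Kcn genes (91.7%, 64.6 to 98.5), all but Kcnk13, beside 57.8% of all Chd7-bound genes. Kcnj9 was counted only through a peak downstream of the gene that also lay in another gene's window, with the start of Igsf8 nearest. Chd7-bound Kcn genes and all Chd7-bound genes differ in length, with medians of 259 kb and 45.0 kb. Every Kcn gene over 100 kb had WT Top2b, with or without Chd7. The sites themselves seldom coincided. Only the Chd7 peak upstream of the internal start of Kcnn2 overlapped a WT Top2b peak, which is 1 of 15 (6.67%, 1.19 to 29.8) beside 16.6% of the Chd7 list. Peaks of Chd7-deficient CGNs overlapped 3 of the 15 Chd7 sites (20%, 7.05 to 45.2), at Kcnn2, Kcnk10 and Kcnd3, beside 34.2% of the list. At Kcnab1 and Kcnk10 a WT Top2b peak lay 0.037 kb and 0.250 kb from a Chd7 peak without touching it.

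Kcnd2, Kcnh8, Kcnj3, Kcnq5 and Kcnab1 stand in gene lists that the study drew from expression in GNPs or CGNs after loss of Chd7, for the CGN list together with Top2b inhibition. Those expression data were not analysed here, and the lists come from the same mouse line and cell types, so they are not independent evidence. Kcnd2, for an A-type channel of granule neurons, had 1 H3K27ac peak in GNPs, just upstream of its start (fold enrichment 8.79), no Chd7 peak, and 1 and 4 Top2b peaks in WT and Chd7-deficient CGNs. Kcnh8, for a voltage-gated channel of the Elk type, had 2 H3K27ac peaks (up to 7.88), no Chd7 peak and 2 and 1 Top2b peaks. Kcnj3, Kcnq5 and Kcnab1 had 2, 1 and 1 Chd7 peaks. All 5 had H3K27ac and WT Top2b, and 3 of 5 had Chd7, while the 87 other Kcn genes had H3K27ac at 39.1%, Chd7 at 10.3% and WT Top2b at 54.0%. The 5 genes were 162 to 564 kb long. Of all 23 Kcn genes over 100 kb, these 5 included, H3K27ac lay at 82.6%, Chd7 at 43.5% and WT Top2b at 100%. The part of length in the contrast with the 87 genes was not tested.

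Of the channels known from granule neurons, Kcnc1, for a fast delayed rectifier, had 3 H3K27ac peaks (up to 11.0, at its start), no Chd7 peak, and 2 and 1 Top2b peaks. Kcnk9, for an acid-sensitive leak channel, had 2 intronic H3K27ac peaks of 4.62 and 3.27 and none at its start, with 1 and 3 Top2b peaks. Kcnk3, its close relative, had no H3K27ac peak and 0 and 4 Top2b peaks. Kcnma1 had 4 H3K27ac peaks from 3.05 to 5.50, all intronic. With Kcnd2 and Kcnj6, whose values are given above, 3 of these 6 genes had an H3K27ac peak within 1 kb of a start (Kcnd2, Kcnj6 and Kcnc1) and 3 had none there.

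Other genes of potassium transport and channel assembly were counted from a list of 25, among them channel partners, potassium pumps and cotransporters. H3K27ac lay at 14 (56.0%, 37.1 to 73.3), beside 54.1% of all autosomal protein-coding genes. Chd7 lay at 3 (12%, 4.17 to 29.96), beside 6.34%. WT Top2b lay at 15 (60%, 40.7 to 76.6), beside 30.2%. Top2b of Chd7-deficient CGNs lay at 16 (64%, 44.5 to 79.8), beside 40.5%. The genes of this list ran from 1.27 kb to 2245 kb in length, and the part of length in these shares was not tested. The Chd7-bound ones included Atp1b3 (fold enrichment 4.49), a subunit of the sodium-potassium pump, and Cntnap2 (3.89), which clusters Kcna channels on axons. Dpp6, a partner of Kcnd channels, had 7 H3K27ac peaks and no Chd7 peak.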

How the data were processed

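ChIP-seq peak lists of P7 GNPs (H3K27ac, Chd7 in WT, Chd7 in Chd7-deficient cells) and of CGNs (Top2b in both genotypes) were analysed, with 1 sample per condition. The authors trimmed reads with Trim Galore, mapped them to mm10 with Bowtie 1.0.0, keeping unique alignments, and called Chd7 and H3K27ac peaks with MACS2 and Top2b peaks with HOMER. The control library used for each list is not given in the sources used here. The pileup in the tables deposited by the authors is a coverage signal at the summit, beside a ratio (fold enrichment over local background) and −log10 transformed p-values and q-values. Fold enrichment and −log10 columns had lost their decimal points and were divided by 100000. Poisson p-values computed from pileup and fold enrichment then differed from the listed ones by at most 0.0026 in −log10 units. Top2b lists deposited by the authors hold positions only.

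A peak was counted for a gene when its centre lay from 5 kb upstream to 1 kb downstream (GENCODE M21). Peaks were called shared at an overlap of at least 1 bp. Shares have 95% Wilson intervals. Since there were no replicates, no test was made. Named genes were every Kcn gene with a Chd7 peak, the 5 with the highest and the 5 with the most H3K27ac peaks, the 5 with the most Top2b peaks (ties kept), those where Top2b overlapped Chd7, those in super-enhancer-like regions, those in the study's gene lists, and Kcnd2, Kcnk3, Kcnk9, Kcnj6, Kcnc1 and Kcnma1. The members and lists were chosen with earlier results of these data known. Values of some genes are not reported here. Counting was tested on simulated peaks. Groups by current type, and genes with Top2b in 1 genotype alone, were picked after their values were seen. Other windows, q-value limits, overlaps and stitching gaps were tried. Software was Python 3.11.15 with matplotlib 3.10.9, pysam 0.24.0, scipy 1.17.1, numpy 2.4.6 and pandas 2.3.3.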

Additional observations from a re-analysis of the deposited data

How the results depend on the processing

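Of 51 alternative values, 34 were classed as unchanged and 17 as moved. Counts were held to 1.5 times the main count, and shares to the interval of the main share. The median length of Chd7-bound Kcn genes is neither, and its alternatives were classed as unchanged although they were larger. It was 259 kb by the main rule, 417 kb within 1 kb of a start and 416 kb at a −log10 q-value of at least 5. With a peak centre within 50 kb of the gene, 69 Kcn genes had H3K27ac (75% beside 75.1% of all genes, so the lower share of the main rule was not seen), 21 had WT Chd7 (22.8% beside 15.0%) and 79 had Top2b in Chd7-deficient CGNs (85.9% beside 74.0%). With a centre within 1 kb of a transcript start, 3 genes had WT Chd7 (3.26% beside 4.33%), 18 had Top2b in WT (19.6% beside 13.2%) and 26 in Chd7-deficient CGNs (28.3% beside 24.8%). WT Chd7 at a start then lay at 6.67% of Kcnj and 0% of Kcnk genes, and WT Top2b at 15.2% of Kcna to Kcnh, 20% of Kcnj and 28.6% of Kcnk genes. Of the Chd7-bound genes, 4 were left at a −log10 q-value of at least 5 (4.35% beside 2.37% of all genes) and 1, Kcnab1, at 10 (1.09% beside 0.255%), where the shares were 0% in the Kcna to Kcnh, 0% in the Kcnj and 0% in the Kcnk group. Joining H3K27ac peaks over gaps of up to 5 kb left 1 Kcn gene in a super-enhancer-like region. Leaving out peaks in the window of another gene was chosen after seeing the data and left 37, 12, 49 and 50 genes with H3K27ac, WT Chd7, WT Top2b and Top2b of Chd7-deficient CGNs. The share of WT Chd7 peaks over H3K27ac stayed between 78.3% and 86.7%. A stricter Top2b threshold could not be run, since those lists give positions only. No paired analysis was possible because there was 1 sample per condition. Without read numbers, depth limits every list, and a gene without a peak cannot be called unbound.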

Other observations

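Outside the counted set, the X-linked Kcnd1 had no peak in any list, and Kcne1l had 1 H3K27ac peak and 1 WT Top2b peak. Of the antisense transcripts with a Kcn symbol, Kcnmb4os2 had 2 H3K27ac peaks and 1 Top2b peak in Chd7-deficient CGNs, Kcnd3os and Kcnq1ot1 had 1 H3K27ac peak each, and Kcnmb4os1 and Kcnab3os had no peak in any list.

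Genes were also grouped by the current they carry, after their values were seen, and the groups are too small to compare. Pore and calcium-sensor subunits of A-type channels (Kcnd2, Kcnd3 and Kcnip1 to Kcnip4) had H3K27ac at 4 of 6, WT Chd7 at 2, WT Top2b at 5 and Top2b of Chd7-deficient CGNs at 6. The acid-sensitive leak channels (Kcnk3, Kcnk9 and Kcnk15) had H3K27ac at 1 of 3, WT Chd7 at 0, WT Top2b at 1 and Top2b of Chd7-deficient CGNs at 3. Small-conductance calcium-activated channels (Kcnn1 to Kcnn4) had H3K27ac at 3 of 4, WT Chd7 at 1, and Top2b at 2 in each genotype. Kcnj11, which forms channels closed by ATP, had the densest H3K27ac of any Kcn gene at 23.4 peaks per 100 kb of window, with 3 peaks of which 1 also lay in the window of its neighbour Abcc8.

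Kcn genes without a peak in any list numbered 18 (19.6%, 12.7 to 28.8), beside 32.3% of all genes (31.6 to 32.9). They were Kcna1, Kcna6, Kcna7, Kcne4, Kcnf1, Kcng1, Kcng4, Kcnj13, Kcnj14, Kcnj15, Kcnj5, Kcnk16, Kcnk18, Kcnmb1, Kcnmb3, Kcnn4, Kcnrg and Kcns1. Kcn genes are longer (median 32.2 kb beside 17.6 kb for all genes) and so have wider windows, and the part of length in the lower share was not tested. Top2b was listed in both genotypes at 11 genes with no H3K27ac peak in GNPs, Kcnh7, Kcnip1, Kcnmb2 and Kcnt2 among them.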
